A study of Mus musculus with 32 samples.

Results

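Matrix metalloproteinases (MMPs), the related ADAM, ADAMTS and ADAMTSL proteins, and the MMP inhibitors of the TIMP family and Reck were followed in lung organoid cultures that received the secreted products of fibroblasts. The members are the genes whose symbol consists of Mmp, Timp, Adam, Adamts or Adamtsl with a number, together with Reck, and 34 of the 11818 genes counted met this rule. They comprise 11 MMP, 3 TIMP, 8 ADAM, 8 ADAMTS and 3 ADAMTSL genes and Reck, and the rule reads gene symbols and no measured value, although it was set with earlier results of these data known. In these cultures CD45-/CD31-/Epcam+ epithelial cells, isolated from lungs of adult C57BL/6J mice (8 to 14 weeks), grew in Matrigel beside CCL206 cells, a mouse lung fibroblast line made unable to divide with mitomycin C. Vehicle, extracellular vesicles (EVs, 1000000000 particles per mL), soluble factors (SFs, 30 µg/mL) or recombinant osteoglycin (OGN, 10 µg/mL) were given for 72 h. EVs and SFs were both prepared from medium of MRC5, a human fetal lung fibroblast line. The question was which genes each product changes in the epithelial cells and in the fibroblasts. Cultures were then separated with Epcam (CD326) microbeads, and both fractions were sequenced, so that the 8 groups hold 4 libraries each, numbered by mouse. No genotype differed between groups, and the CCL206 cells of all cultures were of 1 line, so that the mouse number of a CCL206 library stands for the culture and not for the animal the fibroblasts came from.

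MMPs are zinc-dependent endopeptidases that are made as inactive precursors and that cleave collagens, proteoglycans, growth factors and one another once activated. TIMPs are small secreted proteins that bind active MMPs, and Timp3 differs from the others in that it is held in the matrix and also inhibits ADAM17 and the ADAMTS aggrecanases. ADAMs are membrane-bound and release the outer part of receptors, adhesion proteins and growth factor precursors, whereas ADAMTS proteins are secreted and act on procollagens, proteoglycans and other matrix components, and ADAMTSL proteins resemble them but lack the protease domain. In the lung, fibroblasts are a main source of many of these secreted enzymes and their inhibitors, and an excess of proteolysis over inhibition is a long-standing theme in emphysema.

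Of the 86 protein-coding genes that the RefSeq mouse annotation lists under the same rule, 52 had no row in the count table, whose rows were all at 1 count or more in each of the 32 libraries. Mmp7, Mmp8, Mmp12, Timp4, Adam28 and Adam33 were among these and were not analysed here. All 34 members passed the filter on low counts in every comparison. Their transcripts measured between 937 nucleotides (Timp1) and 11581 nucleotides (Mmp16).

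Mmp3, Mmp10 and Mmp13 are shown with the 100 bases before their annotated start, because they were among the MMP genes that rose with OGN and lie close together on chromosome 9. The sequences are those of RefSeq on GRCm38.p6, on the plus strand and written 5′ to 3′, at chr9:7445722-7445821, chr9:7502242-7502341 and chr9:7272414-7272513, and capitals mark the AP-1 motif TGANTCA.
Mmp3: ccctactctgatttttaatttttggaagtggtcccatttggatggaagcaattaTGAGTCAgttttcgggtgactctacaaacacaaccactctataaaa
Mmp10: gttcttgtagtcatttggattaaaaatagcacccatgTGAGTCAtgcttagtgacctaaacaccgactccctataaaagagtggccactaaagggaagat
Mmp13: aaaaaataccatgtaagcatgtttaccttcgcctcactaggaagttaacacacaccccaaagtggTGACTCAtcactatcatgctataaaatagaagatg
AP-1, a dimer of Fos and Jun proteins, is a known regulator of collagenase and stromelysin promoters. The motif, searched on both strands, was found in 4 of the 24 members with a RefSeq promoter window (250 bases before to 50 after the start), which were these 3 genes and Adam19. It began at -46 in Mmp3, at -63 in Mmp10, at -35 in Mmp13 and at -131 in Adam19, and 8.97% of all 27025 genes with a window carried it. Of the other members that changed with OGN, as given below, Adamts4, Adamts5, Adamts7 and Mmp19 had no window. Adam17, Adamts9, Mmp11 and Timp3 had a window without the AP-1 motif. The TATA box TATAAA was in 4 members, namely Adamts1, Mmp3, Mmp10 and Mmp13, and in 9.77% of all genes. The NF-kB consensus was in Adam19 and Adamts9 and in 9.55% of all genes. These motifs do not overlap in the 3 sequences shown, and a match is a description of letters and not evidence of binding.

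Both fractions carried the markers their labels name, and each also carried markers of the other. Library depth was between 1805914 and 17675454 counts (median 5901652), and levels are given as CPM, counts scaled to a common library size by TMM. The 7 fibroblast markers in the table (Thy1, the eighth, had no row) had levels in Epcam+ libraries of 14.5% (Pdgfra) to 28.4% (Col1a1) of those in the CCL206 library of the same vehicle-treated culture, with a median of 22.4%. This median was 26.6% with EVs, 25.8% with SFs and 17.6% with OGN. Epithelial markers (8 of 8 present) had a median in the CCL206 libraries of 11.1% of the Epcam+ level with vehicle, from 3.97% for Epcam to 121 ± 184% (SD) for Sftpc. For Sftpc the mean of the inverse ratio, Epcam+ over CCL206, was 317 ± 273% (SD), so its direction was not the same in all cultures. The median of the markers was 11.8% with EVs, 8.53% with SFs and 13.8% with OGN. Between OGN and SFs the epithelial markers in CCL206 libraries had a median log2 fold change of 0.70, with 6 of 8 at an unadjusted p under 0.05 and 0 called by edgeR. Of markers of other lung cells only Cd68 (1 of 8 macrophage markers) and Vwf (1 of 6 endothelial markers) had rows, and the neutrophil markers (0 of 6) had none. In the CCL206 libraries with EVs, counts were shifted toward short transcripts. The Spearman correlation across genes between a library's deviation and transcript length was -0.583 for mouse 2 and -0.623 for mouse 4, against -0.287 and -0.364 for mice 1 and 3 and -0.244 to 0.188 in the other 12 CCL206 libraries. In Epcam+ libraries it lay between -0.288 (OGN, mouse 4) and 0.330 (SFs, mouse 1). Results that rest on the CCL206 libraries with EVs are given with and without them.

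In vehicle-treated cultures most members were higher in the fibroblasts. Of the 34 members, 27 were lower and 4 were higher in the Epcam+ fraction (edgeR's quasi-likelihood test, adjusted p under 0.05, called from here on), and the median log2 fold change was -1.67. Over all genes 71.4% were called, with 35.8% lower and 35.6% higher in Epcam+ libraries, and the median was near 0. In bulk libraries fewer cells of a type and less RNA per cell cannot be told apart. The members higher in the Epcam+ fraction were Mmp15, a membrane-type MMP (log2 fold change 2.48 ± 0.13 (SE), adjusted p = 3.5e-08), Adam8, a sheddase best known from leukocytes (0.87 ± 0.15 (SE), adjusted p = 0.000311), Adamtsl4, a fibrillin-binding protein (0.64 ± 0.11 (SE), adjusted p = 0.00034), and Adam9, a widely expressed sheddase (0.23 ± 0.07 (SE), adjusted p = 0.00829). Mmp15 was at 129, 90.05, 101 and 89.5 CPM in the Epcam+ libraries of mice 1 to 4 and at 28.7, 17.1, 18.1 and 11.6 CPM in the fibroblast libraries. The lowest Epcam+ library thus lay above the highest fibroblast library for Mmp15. Adam9 was no longer called without mouse 3 (adjusted p = 0.0535), and the other 3 were called with each mouse left out.

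The strongest differences toward the fibroblasts were those of Adamtsl3 (-3.45 ± 0.16 (SE), adjusted p = 1.83e-08), the stromelysin Mmp10 (-3.07 ± 0.38 (SE), adjusted p = 2.83e-05), Adam23, an integrin-binding ADAM without protease activity (-2.80 ± 0.18 (SE), adjusted p = 1.36e-07), and the gelatinase Mmp9 (-2.68 ± 0.14 (SE), adjusted p = 3.54e-08). As a share of the fibroblast level in the same culture, Adamtsl3 stood at 9.15%, Mmp10 at 11.3%, Adam23 at 14.5% and Mmp9 at 15.8% in Epcam+ libraries. These shares lay at or under the lower end of those of the fibroblast markers, apart from that of Mmp9, which lay within their range, and how much of the Epcam+ signal of these genes came from fibroblasts was not tested. Adam12, Adam17 and Adamts9 were not called between fractions, with log2 fold changes of -0.04, 0.12 and 0.20. Adam17, the sheddase of TNF and EGF receptor ligands, stood at 109% of the fibroblast level and Adamts9 at 116%.

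Per kilobase of transcript, Timp2 led both fractions. Its level was 584 ± 71.9 CPM per kb (SD, n = 4) in fibroblasts and 156 ± 24.2 in Epcam+ libraries. In fibroblasts Mmp14 (249.99 ± 22.1), the main membrane-type collagenase, and Mmp2 (171 ± 8.84), the gelatinase that Mmp14 activates together with Timp2, followed. In Epcam+ libraries Adam9 (97.01 ± 4.97) and Mmp14 (78.7 ± 5.98) followed. The TIMPs together made up 45.6 ± 1.92% of the summed CPM per kb of all members in vehicle-treated fibroblasts and the MMPs 34.5 ± 0.814%, against 35.8 ± 2.39% and 26.3 ± 0.324% in Epcam+ libraries, where the ADAMs took 30.7 ± 2.26%.

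**Figure D1:**
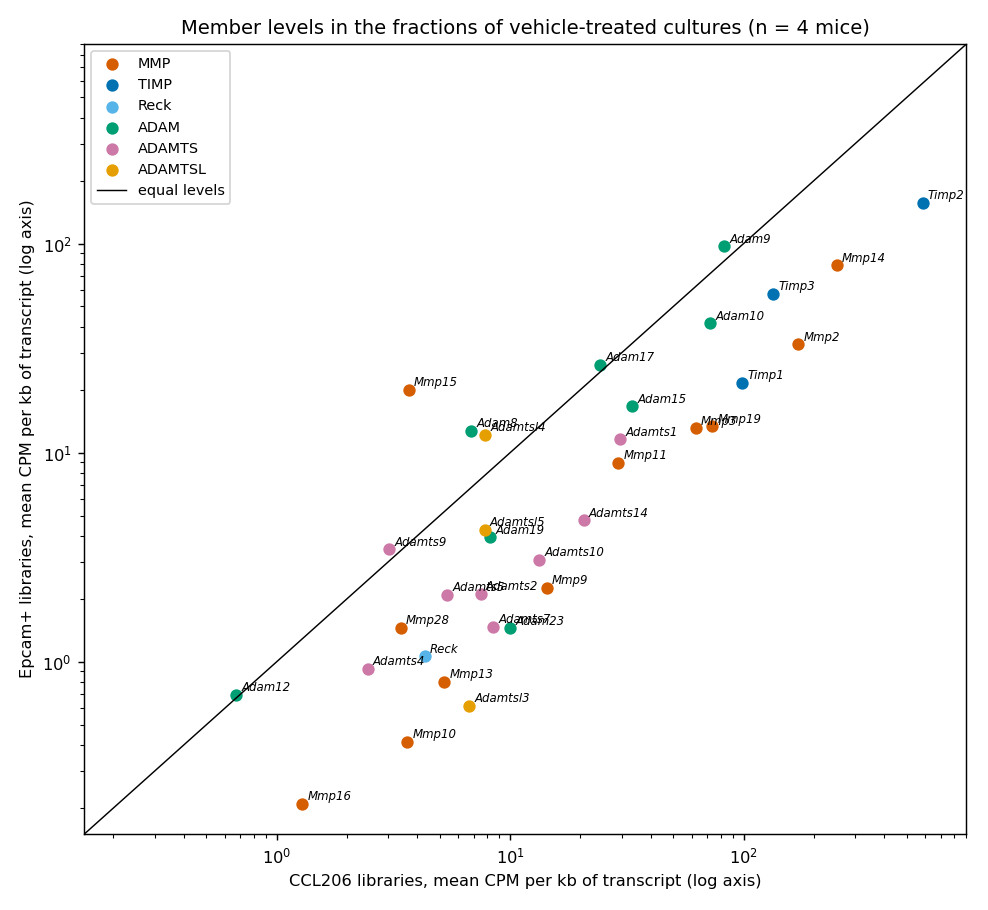
Mean CPM per kb of transcript of the 34 members in Epcam+ libraries (vertical, log axis) and CCL206 libraries (horizontal, log axis) of vehicle-treated cultures, n = 4 mice each, with 1 point per gene, coloured by family. Most points lie under the line of equal levels, Timp2 is the highest in both fractions, and Mmp15 lies farthest above the line.

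With OGN, 5 members were called in Epcam+ cells, of which 4 rose and 1 fell, where 2.7% of all genes tested were called (1.48% higher and 1.22% lower). In CCL206 fibroblasts 9 members were called, of which 7 rose and 2 fell, where 4.56% of all genes were called (2.7% higher and 1.86% lower). Adamts7 and Mmp13 rose and Timp3 fell in both fractions. The median log2 fold change of the members was -0.05 in Epcam+ cells and 0.05 in fibroblasts, against -0.00 and -0.01 over all genes. With SFs, 1 member was called higher in fibroblasts, where 0.0599% of all genes were called, all of them higher. In Epcam+ cells 0 members were called with SFs, where 0.23% of all genes were called (0.154% higher and 0.0768% lower). With EVs 10 members were called in fibroblasts, where 36% of all genes were called (19.8% higher and 16.2% lower), and 0 in Epcam+ cells, where 0.888% were called (0.538% higher and 0.35% lower). All these comparisons use the same vehicle libraries within a fraction.

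Mmp13, the collagenase that cleaves fibrillar collagens in rodents, rose with OGN in both fractions. It was at 10.9, 15.7, 16.6 and 12.5 CPM in vehicle-treated fibroblasts and at 40.6, 33.6, 22.9 and 29.4 CPM in OGN-treated fibroblasts of mice 1 to 4. The groups did not overlap, and the log2 fold change was 1.14 ± 0.18 (SE) (edgeR's quasi-likelihood test, adjusted p = 0.000841). In Epcam+ libraries Mmp13 was at 1.83, 2.57, 2.22 and 1.95 CPM with vehicle and at 9.34, 5.16, 6.65 and 3.50 CPM with OGN. All 4 OGN libraries lay above the 4 vehicle libraries, with a log2 fold change of 1.59 ± 0.39 (SE) (adjusted p = 0.0253). The Epcam+ counts were small, at 31, 8, 11 and 7 reads with vehicle and 53, 28, 91 and 13 with OGN, and the call was lost without mouse 1 (adjusted p = 0.378) or mouse 3 (adjusted p = 0.158). The Epcam+ level of Mmp13 was 15.6% of the fibroblast level with vehicle and 19.8% with OGN, beside medians of 22.4% and 17.6% for the fibroblast markers, and the part of fibroblast RNA in this change was not tested.

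Mmp3 and Mmp10, the stromelysins, which digest proteoglycans and laminin and activate other MMPs, were called in different fractions. Mmp3 was at 97.7, 111, 123 and 117 CPM in fibroblasts with vehicle and at 164, 184, 172 and 169 CPM with OGN, without overlap (log2 fold change 0.62 ± 0.12 (SE), adjusted p = 0.00456). In Epcam+ libraries it was at 16.01, 19.3, 23.9 and 35.1 CPM with vehicle and at 24.8, 31.3, 30.96 and 30.7 CPM with OGN. These groups overlapped, and the gene was not called there (0.39 ± 0.15 (SE), adjusted p = 0.254). The difference between fractions in this response (0.23 ± 0.19 (SE), fibroblasts minus Epcam+) was not called (adjusted p = 0.988). The fibroblast call of Mmp3 was lost without mouse 2 (adjusted p = 0.0866).

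Mmp10 was at 0.886, 0.322, 0.809 and 0.837 CPM in Epcam+ libraries with vehicle, which were 15, 1, 4 and 3 reads, and at 3.17, 2.77, 1.97 and 2.69 CPM with OGN, which were 18, 15, 27 and 10 reads. All 4 OGN libraries lay above all vehicle libraries (1.76 ± 0.45 (SE), adjusted p = 0.0326), but at these counts the call was lost with any 1 mouse left out (adjusted p from 0.105 to 0.222). In fibroblasts Mmp10 was at 7.19, 5.69, 6.05 and 6.04 CPM with vehicle and 12.01, 11.7, 7.51 and 7.79 CPM with OGN and was not called (0.59 ± 0.21 (SE), adjusted p = 0.14), although all 4 OGN values were above the 4 vehicle values. The difference between the fractions in the OGN response of Mmp10 (-1.15 ± 0.41 (SE), fibroblasts minus Epcam+) was not called either (adjusted p = 0.357). Mmp11, the secreted stromelysin that is activated inside the cell by furin, was at 58.5, 66.9, 64.96 and 75.1 CPM in fibroblasts with vehicle and at 82.04, 98.8, 95.5 and 99.3 CPM with OGN (0.50 ± 0.09 (SE), adjusted p = 0.00333). Its groups did not overlap, and the call was lost without mouse 3 (adjusted p = 0.0605).

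**Figure D2:**
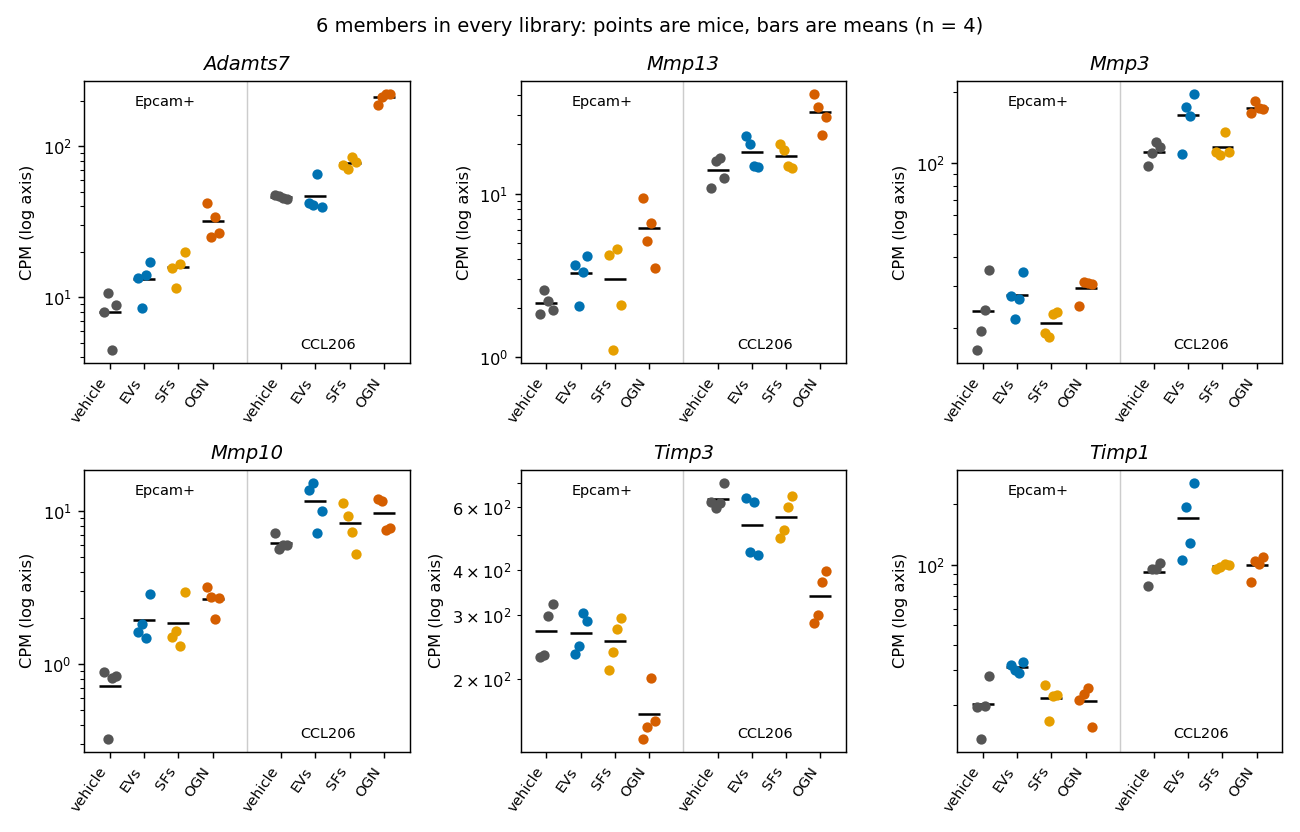
CPM (log axis) of Adamts7, Mmp13, Mmp3, Mmp10, Timp3 and Timp1 in all 32 libraries, grouped by fraction and treatment, where points are the 4 mice and bars the means. Adamts7 is highest and Timp3 lowest in the OGN-treated libraries within each fraction, and the mean of Timp1 in fibroblasts is highest with EVs.

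Timp3 was lower with OGN in both fractions, while the other inhibitors were not called. It was at 230.5, 232, 299 and 323 CPM in Epcam+ libraries with vehicle and at 136, 147, 202 and 153 CPM with OGN. The lowest vehicle library lay above the highest OGN library, and the log2 fold change was -0.76 ± 0.08 (SE) (adjusted p = 1.18e-06). In fibroblasts Timp3 was at 618, 598, 614 and 701 CPM with vehicle and at 285, 300.5, 372 and 398 CPM with OGN, again without overlap (-0.91 ± 0.13 (SE), adjusted p = 0.000371). Both calls were kept with each mouse left out and under every other alternative run. Timp3 in Epcam+ libraries stood at 42.7% of the fibroblast level with vehicle and at 47.3% with OGN, above the highest share of any fibroblast marker (28.4% and 24.1%). The part of fibroblast RNA in the Epcam+ fall of Timp3 was not tested.

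Timp1 was at 78.5, 95.1, 94.8 and 102 CPM in fibroblasts with vehicle and 81.8, 105, 101 and 109.8 CPM with OGN (0.10 ± 0.15 (SE), adjusted p = 0.849), and in Epcam+ libraries at 19.6, 13.5, 19.8 and 27.9 and 21.1, 22.7, 24.2 and 15.6 CPM (0.09 ± 0.17 (SE), adjusted p = 0.884). Timp2 was at 1819, 2157, 2355 and 2419 CPM in fibroblasts with vehicle and 2002, 2051, 1888 and 2027 CPM with OGN (-0.13 ± 0.11 (SE), adjusted p = 0.624), and in Epcam+ libraries at 526, 548, 549.8 and 721 and 594, 576, 566 and 517 CPM (-0.04 ± 0.09 (SE), adjusted p = 0.898). The groups of both genes overlapped in each fraction. Reck, a membrane-anchored inhibitor of Mmp2, Mmp9 and Mmp14, ranged over 16.1 to 22.1 CPM with vehicle and 14.2 to 21.3 with OGN in fibroblasts, and over 3.24 to 5.79 and 1.84 to 4.05 CPM in Epcam+ libraries. It was not called in either (adjusted p = 0.861 and 0.492). The TIMP share of the members' summed CPM per kb was 39.1 ± 0.849% in OGN-treated fibroblasts against 45.6 ± 1.92% with vehicle, and the MMP share 38.6 ± 0.47% against 34.5 ± 0.814%. In Epcam+ libraries the TIMP share was 32.5 ± 1.23% with OGN and 35.8 ± 2.39% with vehicle. These shares are descriptions and follow mainly the most abundant members.

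The gelatinases Mmp2 and Mmp9, which digest denatured collagen and basement membrane, were not called with OGN against vehicle. Mmp2 was at 510.5, 503, 536 and 563 CPM in fibroblasts with vehicle and 386, 443, 507 and 482 CPM with OGN (-0.22 ± 0.09 (SE), adjusted p = 0.233), and at 93.9, 73.3, 101 and 140.03 and 81.4, 68.6, 84.1 and 92.8 CPM in Epcam+ libraries (-0.31 ± 0.10 (SE), adjusted p = 0.135). Mmp9 ranged over 39.3 to 52.9 CPM with vehicle and 38.7 to 44.9 with OGN in fibroblasts, and over 6.44 to 8.36 and 1.61 to 9.06 CPM in Epcam+ libraries, where the groups overlapped.

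Of the membrane-type MMPs, Mmp14 ranged over 633 to 772 CPM with vehicle and 725 to 802 with OGN in fibroblasts (0.13 ± 0.09 (SE)) and over 205 to 242 and 203 to 234 CPM in Epcam+ libraries (-0.01 ± 0.09 (SE)), and it was not called in any treatment against vehicle. Mmp15 and Mmp16 were likewise not called with OGN in either fraction, with log2 fold changes of 0.34 and -0.12 in fibroblasts and -0.06 and -0.43 in Epcam+ cells. Mmp19, an MMP that cleaves basement membrane proteins, was at 265, 311, 213 and 229 CPM in fibroblasts with vehicle and 417, 467, 275 and 280.4 CPM with OGN. The groups overlapped, and each of the 4 mice was higher with OGN than with vehicle (0.47 ± 0.09 (SE), adjusted p = 0.00339), and without mouse as a term the call was lost (adjusted p = 0.171), as it was without mouse 2 (adjusted p = 0.0774). In Epcam+ cells Mmp19 had a log2 fold change of 0.37 ± 0.12 (SE) (adjusted p = 0.121), and Mmp28, an MMP expressed in epithelia, was not called in either fraction (-0.33 in Epcam+ cells and 0.08 in fibroblasts).

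Among the ADAMs, Adam17 alone was called with OGN against vehicle, in fibroblasts. It was at 113, 105, 102 and 113 CPM with vehicle and at 143, 144, 139 and 139 CPM with OGN (0.38 ± 0.10 (SE), adjusted p = 0.0461). The groups did not overlap, but the call was lost without mouse 1, 2 or 3 (adjusted p = 0.101, 0.328 and 0.243). In Epcam+ cells Adam17 was at 125, 103, 115 and 127 and 156, 136, 131 and 132 CPM (0.23 ± 0.08 (SE), adjusted p = 0.175), also without overlap. Adam10, the sheddase of Notch and cadherins, ranged over 312 to 347 CPM with vehicle and 348 to 400.4 with OGN in fibroblasts (0.18 ± 0.13 (SE), adjusted p = 0.602) and over 175 to 203 and 161 to 218 in Epcam+ libraries. Adam8 in fibroblasts had a log2 fold change of 0.52 ± 0.15 (SE) that missed the threshold (adjusted p = 0.0638). The remaining ADAMs, Adam9, Adam12, Adam15, Adam19 and Adam23, had log2 fold changes from -0.43 (Adam12) to 0.18 (Adam19) in fibroblasts and from -0.37 (Adam12) to 0.24 (Adam15) in Epcam+ cells.

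Adamts7, a secreted protease of cartilage oligomeric matrix protein and thrombospondin, had the largest rise of the 34 members with OGN in both fractions. It was at 47.9, 46.5, 45.1 and 44.7 CPM in fibroblasts with vehicle and at 189, 212, 222 and 222 CPM with OGN. Within each group the mice differed little, and the log2 fold change was 2.19 ± 0.12 (SE) (adjusted p = 2.45e-08). In Epcam+ libraries Adamts7 was at 7.98, 10.6, 4.45 and 8.93 CPM with vehicle and at 42.1, 24.9, 33.96 and 26.6 CPM with OGN (2.06 ± 0.23 (SE), adjusted p = 4.56e-06). Neither fraction showed overlap, and both calls were kept under every alternative run. The Epcam+ level of Adamts7 was 17.3% of the fibroblast level with vehicle and 15.3% with OGN, beside a fibroblast marker median of 22.4% and 17.6%, and the part of fibroblast RNA in the Epcam+ result was not tested.

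The aggrecanases Adamts4 and Adamts5, which cleave aggrecan and versican, moved in opposite directions in OGN-treated fibroblasts. Adamts4 was at 11.5, 14.02, 9.03 and 8.51 CPM with vehicle and at 20.6, 17.8, 15.5 and 16.3 CPM with OGN (0.71 ± 0.19 (SE), adjusted p = 0.0408). Adamts5 was at 52.9, 48.7, 57.8 and 73.03 CPM with vehicle and at 34.2, 31.9, 36.8 and 35.8 CPM with OGN (-0.74 ± 0.12 (SE), adjusted p = 0.0014). Neither gene's groups overlapped, yet they differed in stability. Adamts5 was called under every alternative run, whereas the call of Adamts4 was lost with any 1 mouse left out (adjusted p from 0.056 to 0.196) and without mouse as a term (adjusted p = 0.0705). In Epcam+ cells neither was called, with log2 fold changes of -0.51 ± 0.37 (SE) for Adamts4 (adjusted p = 0.618) and -0.42 ± 0.16 (SE) for Adamts5 (adjusted p = 0.235).

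Adamts9, a versican-cleaving relative of the aggrecanases, rose with OGN in Epcam+ cells and not in fibroblasts. In Epcam+ libraries it was at 31.1, 23.8, 29.1 and 27.3 CPM with vehicle and at 55.3, 35.6, 33.8 and 41.7 CPM with OGN, without overlap (0.56 ± 0.13 (SE), adjusted p = 0.0186). In fibroblasts it was at 28.95, 25.3, 21.5 and 21.8 CPM with vehicle and at 18.8, 17.6, 17.98 and 15.6 CPM with OGN, where all 4 OGN libraries were lower but the gene was not called (-0.47 ± 0.20 (SE), adjusted p = 0.261). The difference between the responses was itself called (-1.04 ± 0.25 (SE), fibroblasts minus Epcam+, adjusted p = 0.0452), where 0.551% of all genes were called (0.407% higher and 0.144% lower). The Epcam+ level of Adamts9 thus went from 116% of the fibroblast level with vehicle to 238% with OGN. The Epcam+ call was lost without mouse 1 or 2 (adjusted p = 0.285 and 0.0826) and without mouse as a term (adjusted p = 0.116), and the difference between fractions was lost with any 1 mouse left out (adjusted p from 0.093 to 0.462).

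The procollagen N-proteinases Adamts2 and Adamts14, the proteoglycanase Adamts1 and the fibrillin-associated Adamts10 were not called with OGN. Their log2 fold changes lay between -0.26 (Adamts14) and 0.18 (Adamts1) in fibroblasts and between -0.34 (Adamts2) and 0.08 (Adamts10) in Epcam+ cells. Of the ADAMTSL genes, Adamtsl3 had a log2 fold change of -0.73 ± 0.21 (SE) in OGN-treated fibroblasts that missed the threshold (adjusted p = 0.0645), from 51.2, 46.1, 51.1 and 52.6 CPM to 36.3, 32.9, 23.9 and 29.7 CPM. Adamtsl4 and Adamtsl5 were not called with OGN in either fraction, with log2 fold changes of -0.12 and 0.02 in fibroblasts.

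**Figure D3:**
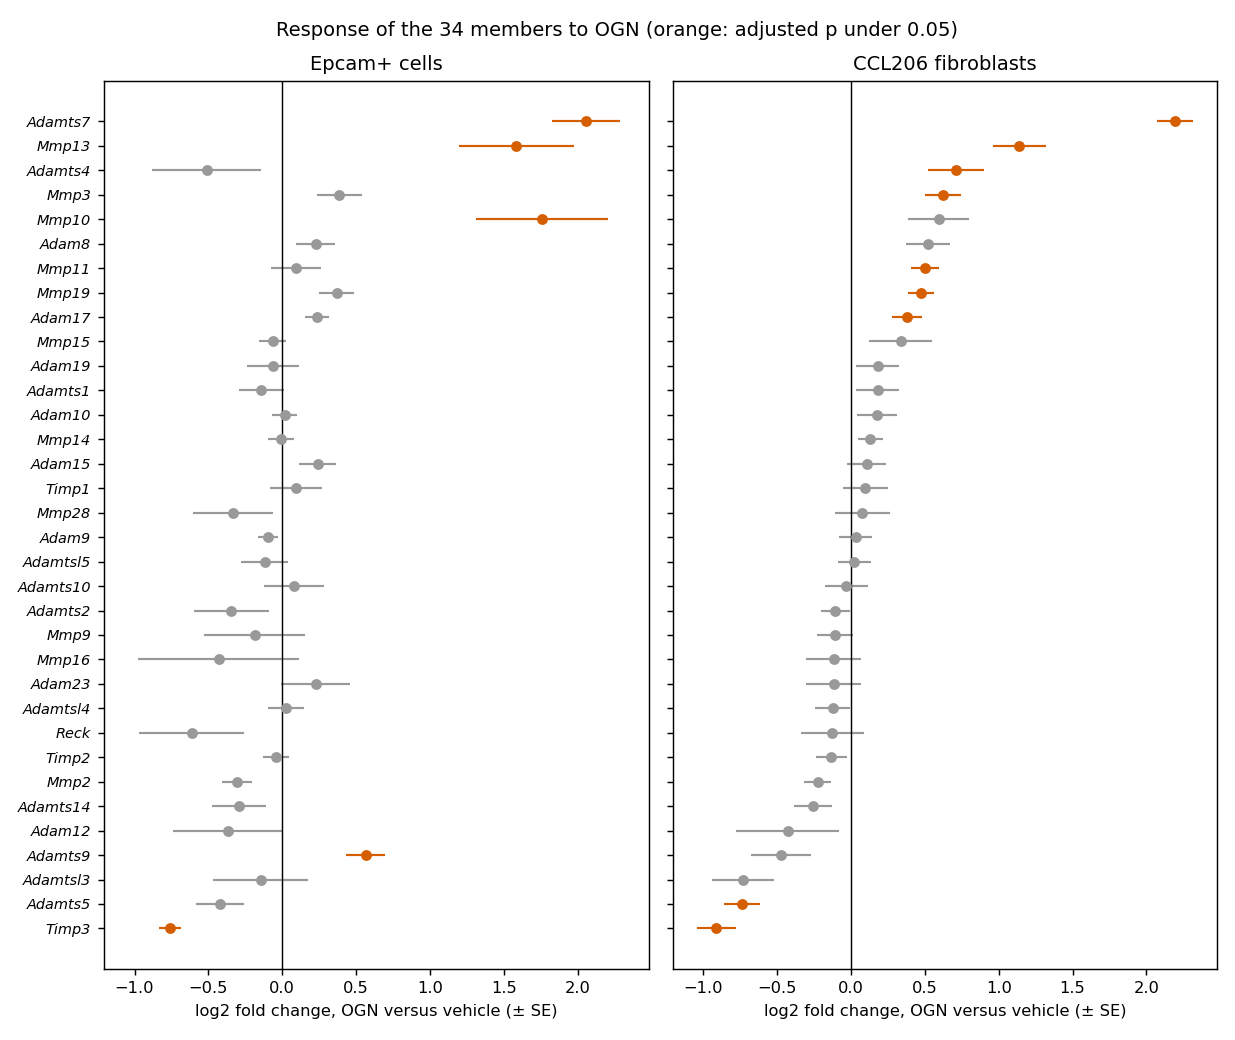
Log2 fold change, OGN against vehicle, of the 34 members in Epcam+ cells (left) and CCL206 fibroblasts (right), with bars for the SE of the edgeR fit and orange for an adjusted p under 0.05. Adamts7 stands at the top and Timp3 at the bottom of both panels, and Adamts9 and Adamts4 lie on different sides of 0 in the panels, with Adamts9 called in Epcam+ cells and Adamts4 in fibroblasts.

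OGN was also compared directly with SFs and EVs, which were given in the same series of cultures. Against SFs, 4 members were called in fibroblasts, where 2.79% of all genes were called (1.91% higher and 0.881% lower). Adamts7 (1.45 ± 0.12 (SE), adjusted p = 6.88e-06), Mmp13 (0.89 ± 0.18 (SE), adjusted p = 0.0123) and Mmp3 (0.56 ± 0.12 (SE), adjusted p = 0.0179) were higher with OGN, and Timp3 was lower (-0.73 ± 0.13 (SE), adjusted p = 0.00453). In Epcam+ cells 3 members were called, where 1.91% of all genes were called (0.819% higher and 1.09% lower), with Adamts7 higher (1.02 ± 0.21 (SE), adjusted p = 0.0116) and Timp3 (-0.66 ± 0.08 (SE), adjusted p = 2.33e-05) and Mmp2 (-0.44 ± 0.10 (SE), adjusted p = 0.024) lower with OGN. Without mouse 2, 1 of the 4 fibroblast calls remained, without mouse 3, 2 remained, and without mouse 1 or mouse 3 1 of the 3 Epcam+ calls remained, that of Timp3. Over all genes the 326 called in fibroblasts were 78 without mouse 2 and 108 without mouse 3. The 224 called in Epcam+ cells were 72 without mouse 1 and 83 without mouse 3. In the Epcam+ libraries the 7 fibroblast markers had a median log2 fold change of -0.39 with OGN against SFs, with 6 at an unadjusted p under 0.05, 2 called lower and 1 higher, and their part in the result for Mmp2 was not tested.

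Against EVs, 4 members were called in Epcam+ cells, where 2.22% of all genes were called (0.666% higher and 1.55% lower). Adamts7 was higher with OGN (1.28 ± 0.21 (SE), adjusted p = 0.000658), and Timp3 (-0.73 ± 0.08 (SE), adjusted p = 3.27e-06), Mmp2 (-0.67 ± 0.10 (SE), adjusted p = 0.000311) and Adamts5 (-0.61 ± 0.16 (SE), adjusted p = 0.0391) were lower. Fibroblast markers were lower with OGN than with EVs in the same libraries, with a median log2 fold change of -0.67 over 7 and 3 of them called, and their part in the results for Mmp2 and Adamts5 was not tested. The call of Adamts5 was lost without mouse 1, 3 or 4 (adjusted p from 0.075 to 0.322) and without mouse as a term (adjusted p = 0.0619), and the other 3 were kept under every alternative run. In fibroblasts 17 members were called between OGN and EVs (12 higher and 5 lower with OGN), where 37.6% of all genes were called (17.5% higher and 20.2% lower). By smallest p the higher ones were Adamts7 (2.17 ± 0.12 (SE)), Adam19 (0.78 ± 0.15 (SE)), Adam10 (0.67 ± 0.14 (SE)) and Adam17 (0.51 ± 0.10 (SE)), and the lower ones Timp3 (-0.67 ± 0.13 (SE)), Timp1 (-0.75 ± 0.16 (SE)), Adamtsl4 (-0.49 ± 0.12 (SE)) and Adamts5 (-0.46 ± 0.13 (SE)). Without mouse 2 the count was 4, without mouse 4 it was 11, and without the EV libraries of mice 2 and 4 it was 14. Over all genes the 4397 called were 636, 1729 and 1554 in these fits. With the length trend taken out Timp1 stood at -0.11 (adjusted p = 0.327), and Adamts5 was lost under 5 of 12 alternatives, among them without the EV libraries of mice 2 and 4 (adjusted p = 0.111). Adamts7, Adam19 and Timp3 were called between OGN and EVs in fibroblasts under every alternative run.

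SFs changed few members. Adamts7 in fibroblasts was at 47.9, 46.5, 45.1 and 44.7 CPM with vehicle and at 75.2, 70.2, 84.6 and 78.98 CPM with SFs, without overlap (0.74 ± 0.12 (SE), adjusted p = 0.0294). It was the 1 member called of 7 genes in all, and the call was lost with any 1 mouse left out (adjusted p from 0.186 to 0.462), while the log2 fold change stayed between 0.69 and 0.79. The spread in this fit is estimated with the EV libraries. Without them Adamts7 was the 1 member called of 108 genes, and without those of mice 2 and 4 the 1 member of 75. With only the 8 libraries compared, 2 members were called of 302 genes, Adamts7 among them. In Epcam+ cells Adamts7 was at 15.6, 11.6, 16.5 and 20.02 CPM with SFs (1.03 ± 0.24 (SE), adjusted p = 0.0973), which was above all vehicle libraries and missed the threshold. Adamts9 in Epcam+ cells was at 45.9, 35.9, 38.3 and 52.7 CPM with SFs and missed it as well (0.62 ± 0.13 (SE), adjusted p = 0.0535). Of the members not called by edgeR in Epcam+ cells with SFs, 8 of 34 had an unadjusted p under 0.05, and DESeq2 called 2 of the 34. Of all 11716 genes, 913 had an unadjusted p under 0.05 by edgeR, and DESeq2 called 53 genes. The level of Adamts7 in fibroblasts was ordered vehicle, SFs and OGN without overlap, and the EV libraries (42.4, 40.6, 65.1 and 39.6 CPM) overlapped those with vehicle.

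EVs changed 10 members in fibroblasts, 5 upward and 5 downward, a share of 29.4% beside 36% of all genes. Timp1, a soluble inhibitor encoded by the shortest of the member transcripts, was at 78.5, 95.1, 94.8 and 102 CPM with vehicle and at 106, 193, 128 and 257 CPM with EVs. The groups did not overlap, and the values of mice 2 and 4 were the highest (0.84 ± 0.16 (SE), adjusted p = 0.00368). Mmp10 (0.83 ± 0.22 (SE)), Adam15 (0.57 ± 0.13 (SE)) and Mmp3 (0.51 ± 0.12 (SE)) followed, and Adamtsl4 (0.37 ± 0.12 (SE)) was the fifth. Adamtsl3 was at 20.7, 19.6, 33.03 and 10.3 CPM with EVs against 51.2, 46.1, 51.1 and 52.6 CPM with vehicle (-1.25 ± 0.23 (SE), adjusted p = 0.00341). Mmp16 (-0.77 ± 0.21 (SE)), Adamts9 (-0.66 ± 0.22 (SE)), Adam19 (-0.60 ± 0.15 (SE)) and Adam10 (-0.50 ± 0.14 (SE)) were lower too.

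These responses were ordered by transcript length. Over the 34 members the Spearman correlation of the log2 fold change with length was -0.79, and for the log2 ratios of single mice it was -0.51, -0.75, -0.46 and -0.75 for mice 1 to 4, given as a description over genes that share libraries. In mouse 4 the 17 members with transcripts up to the median length of 4419 nucleotides had a median log2 ratio of -0.05 and the longer ones -0.67, against 0.21 and -0.02 in mouse 1. Without the EV libraries of mice 2 and 4, 3 members were called, namely Timp1 (0.40, adjusted p = 0.0147), Adamtsl4 (0.48, adjusted p = 0.0482) and Adamtsl3 (-0.84, adjusted p = 0.012). With the length trend taken out 5 were called, of which 4 were among the 10, namely Adamtsl3, Adamtsl4, Adam10 and Adam15. Timp1 then stood at 0.22 and was not called (adjusted p = 0.0574), and Mmp16 stood at -0.14 (adjusted p = 0.584). Without mouse 2 the count was 0, with Timp1 at an adjusted p of 0.0653, and without mouse 4 it was 2. Over all genes the 4207 called became 19 without mouse 2 and 711 without mouse 4. They were 645 without the EV libraries of mice 2 and 4, and 2764 with the length trend taken out. OGN against vehicle in fibroblasts, whose spread is estimated with the EV libraries, gave 14 called members without those libraries of mice 2 and 4, the 9 named above among them. Over all genes the count rose as well, from 533 to 1620.

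**Figure D4:**
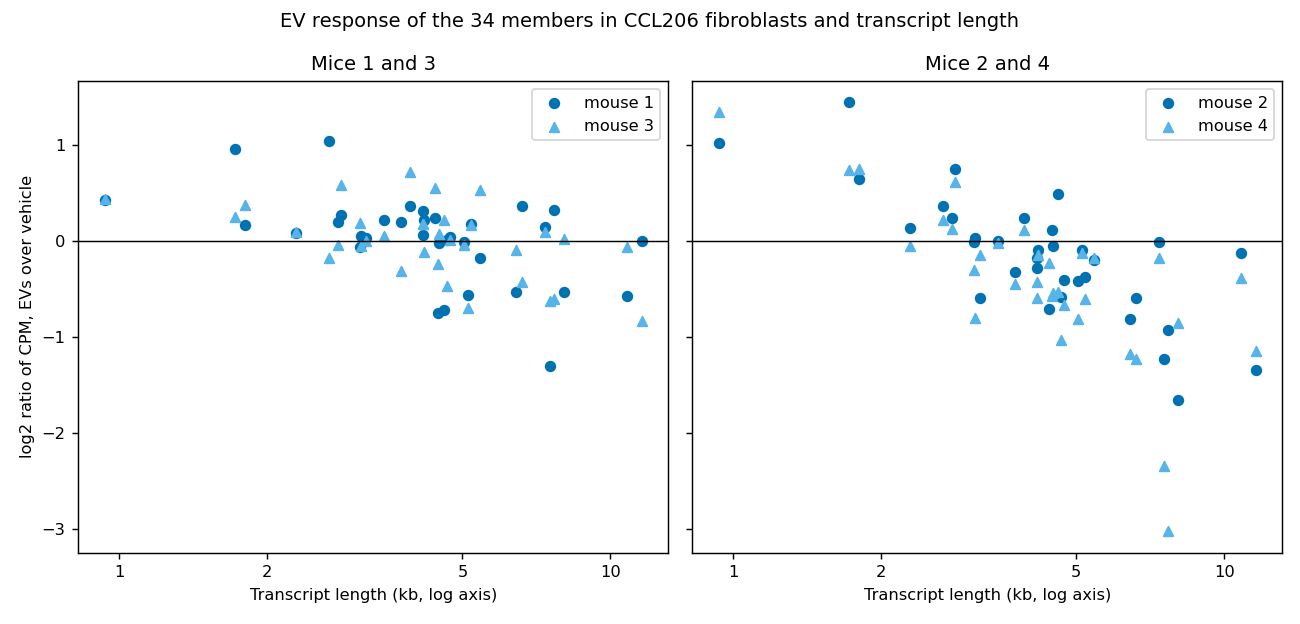
Log2 ratio of CPM, EVs over vehicle, of the 34 members in CCL206 fibroblasts against transcript length (kb, log axis), with mice 1 and 3 on the left and mice 2 and 4 on the right. The fall of the ratio toward long transcripts is steeper in mice 2 and 4 (Spearman -0.75 in each) than in mice 1 and 3 (-0.51 and -0.46).

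In Epcam+ cells no member was called with EVs by edgeR, where 9 of 34 had an unadjusted p under 0.05 and DESeq2 called 3. Of all 11716 genes, 1195 had an unadjusted p under 0.05 by edgeR, and DESeq2 called 201 genes. The member nearest to the threshold was Mmp19, at 47.7, 46.3, 39.6 and 51.3 CPM with vehicle and 79.7, 65.8, 59.02 and 55.7 CPM with EVs (0.48 ± 0.12 (SE), adjusted p = 0.0547). Mmp2 followed (0.36 ± 0.10 (SE), adjusted p = 0.0913), then Timp1 (0.60 ± 0.17 (SE), adjusted p = 0.109). In these libraries 5 of 7 fibroblast markers (Col1a1, Col1a2, Col3a1, Dcn and Lum) were called higher with EVs, and the summed level of the 7 was 2268 to 2933 CPM against 1546 to 2383 with vehicle. Their part in the values of these members was not tested.

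The response to EVs differed between fractions for 7 members, all of them lower in fibroblasts than in Epcam+ cells, where 23.8% of all genes were called (11.8% higher and 12% lower). By smallest p these were Adamtsl3 (-1.71 ± 0.36 (SE)), Adamts9 (-0.95 ± 0.25 (SE)), Adam23 (-0.999 ± 0.30 (SE)) and Mmp2 (-0.44 ± 0.14 (SE)), followed by Adamts7, Mmp19 and Adam10. None of the 7 was called without the EV libraries of mice 2 and 4, a fit in which 33 of all genes were called in place of 2815. For SFs no member had a called difference between fractions by edgeR or by DESeq2. By edgeR 4 members had an unadjusted p under 0.05, as did 590 of all 11805 genes, of which 0 were called.

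Genes that act with the members were read from 8 lists taken from general knowledge. With OGN in fibroblasts, 1 of 7 genes of the plasminogen system was called, the urokinase gene Plau, whose product starts the cascade that activates several MMPs (-0.99 ± 0.15 (SE), adjusted p = 0.000585). This call was kept under every alternative run. In Epcam+ cells the urokinase receptor gene Plaur was called (0.42 ± 0.10 (SE), adjusted p = 0.0159), and this was lost without mouse 1, 3 or 4 (adjusted p from 0.0657 to 0.0987) and without mouse as a term (adjusted p = 0.131). Of 11 proprotein convertases, membrane serine proteases and related genes, Bsg, which encodes the MMP inducer basigin (0.63 ± 0.15 (SE)), and Furin, the convertase that activates Mmp11, Mmp14 and ADAMs (0.39 ± 0.11 (SE)), rose and the serine protease gene Prss23 fell (-0.67 ± 0.15 (SE)) in fibroblasts. The call of Furin was lost with any 1 mouse left out (adjusted p from 0.0971 to 0.23), that of Bsg without mouse 2 or 3 (adjusted p = 0.114 and 0.125) and that of Prss23 without mouse 2, 3 or 4 (adjusted p from 0.0831 to 0.149). Prss23 was also called lower in Epcam+ cells (-0.79 ± 0.21 (SE)), where it was lost under 6 of 12 alternatives, among them without mouse 1, 3 or 4 (adjusted p from 0.193 to 0.368).

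Of 7 partners of ADAM10 and ADAM17, Rhbdf2, which brings ADAM17 to the cell surface, rose in fibroblasts (0.77 ± 0.11 (SE), adjusted p = 0.000416), and the tetraspanin Tspan5, which binds ADAM10, fell (-0.73 ± 0.17 (SE), adjusted p = 0.0193). Rhbdf2 was called under every alternative run, and Tspan5 was lost without mouse 1, 2 or 4 (adjusted p from 0.0547 to 0.164) and without mouse as a term (adjusted p = 0.0534). In Epcam+ cells 0 of these 7 were called by edgeR with OGN, and 1 had an unadjusted p under 0.05. Of 18 ADAM substrates, 4 were called in fibroblasts, with Sdc1 (0.48 ± 0.10 (SE)) and Cxcl16 (0.95 ± 0.26 (SE)) higher and Cx3cl1 (-1.14 ± 0.10 (SE)) and Hbegf (-1.08 ± 0.22 (SE)) lower. Cx3cl1 was called under every alternative run. Cxcl16 was lost without mouse 2, 3 or 4 (adjusted p from 0.117 to 0.255), Sdc1 without mouse 2 or 3 (adjusted p = 0.0602 and 0.117) and Hbegf without mouse 2 (adjusted p = 0.0912), and Cxcl16 and Hbegf also without mouse as a term (adjusted p = 0.111 and 0.127). With vehicle, Cxcl16 and Sdc1 in Epcam+ libraries were at 1028% and 301% of their fibroblast level, beside an epithelial marker median in CCL206 libraries of 11.1% with vehicle and 13.8% with OGN, and the part of epithelial RNA in the fibroblast values of Cxcl16 and Sdc1 was not tested. The same list had 3 called in Epcam+ cells, with Cxcl16 (0.33 ± 0.07 (SE)) higher and Notch1 (-0.53 ± 0.11 (SE)) and Cx3cl1 (-0.47 ± 0.11 (SE)) lower. There Cxcl16 was lost without mouse 1, 2 or 3 (adjusted p from 0.0541 to 0.121), Cx3cl1 without mouse 1, 3 or 4 (adjusted p from 0.0749 to 0.179) and Notch1 without mouse 1 (adjusted p = 0.171).

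Of 11 matrix substrates and partners of the ADAMTS proteins, Fbln2, which encodes fibulin-2, was called with OGN in both fractions (0.67 ± 0.11 (SE) in fibroblasts and 0.53 ± 0.09 (SE) in Epcam+ cells), and the Epcam+ call was lost without mouse 3 (adjusted p = 0.0526) and without mouse as a term (adjusted p = 0.0623). Of 11 cathepsins and cystatins, the collagen-degrading cysteine protease gene Ctsk (2.13 ± 0.28 (SE)), Ctsc (0.62 ± 0.11 (SE)) and Ctsl (0.52 ± 0.12 (SE)) rose in fibroblasts, and 0 were called by edgeR in Epcam+ cells, where 6 had an unadjusted p under 0.05. Ctsk was called under every alternative run, Ctsl was lost without mouse 1 or 2 (adjusted p = 0.092 and 0.158), and Ctsc was lost without mouse as a term (adjusted p = 0.164). With vehicle, Ctsc and Ctsk in Epcam+ libraries were at 385 ± 128% (SD) and 193 ± 133% of their fibroblast level, and Ctsl at 32.7 ± 3.12%. For Ctsk the mean of the inverse ratio, CCL206 over Epcam+, was 182 ± 281% (SD), so its direction was not the same in all cultures. In CCL206 libraries the 8 epithelial markers had a median log2 fold change of 0.31 with OGN against vehicle, with 0 called by edgeR. The part of epithelial RNA in the fibroblast values of Ctsc and Ctsk was not tested. Of 16 AP-1, ETS and related factors known at MMP promoters, Nfkb1 was called in fibroblasts (0.55 ± 0.10 (SE)) and 0 in Epcam+ cells, where 4 had an unadjusted p under 0.05. Of the 2 genes tested among astacins, procollagen C-proteinase enhancers and meprins, Pcolce was called lower in Epcam+ cells (-0.33 ± 0.08 (SE)). Pcolce encodes an enhancer of procollagen C-proteinase. Its call was lost under 5 of 12 alternatives, among them without mouse 2, 3 or 4 (adjusted p from 0.118 to 0.2). The median log2 fold change of the lists with OGN lay between -0.25 and 0.24 in fibroblasts and between -0.25 and 0.17 in Epcam+ cells, against -0.01 and -0.00 over all genes.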

How the data were processed

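RNA sequencing was done on 32 libraries from organoid cultures of 4 mice, 1 per fraction and treatment. The authors trimmed reads with Trimmomatic (version 0.30, per the labels), aligned them and deposited raw counts per gene, without normalization, as a table of 11818 genes, each at 1 count or more in all libraries. The labels name GRCm39 and the methods GRCm38 patch 6, and the aligner and counter are not given in the sources used here. Whether counting used strand is not given either, so reads of overlapping genes cannot be told apart.

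Counts were normalized by TMM, filtered with filterByExpr (11716 genes in Epcam+ cells, 11689 in fibroblasts, 11749 between fractions and 11805 for differences of response) and tested with the quasi-likelihood F test of edgeR (version 4.0.16, R version 4.3.3). Treatments were compared over the 16 libraries of a fraction with mouse in the model, fractions over the 8 vehicle libraries, and differences between fractions over all 32. P-values were adjusted by Benjamini-Hochberg over all genes, with a threshold of 0.05. Fold changes are log2, and SE is the size of that change over the root of F. Transcript lengths were those of the canonical transcript in the GENCODE mouse annotation, and promoters and positions came from RefSeq (GRCm38.p6). Mouse numbers pair the libraries, since the Epcam+ cells of 1 number come from 1 mouse and the CCL206 cells from the cultures grown with them. Residuals correlated within mouse numbers (mean r 0.135 in Epcam+ and 0.107 in CCL206) more than between them (-0.0400 and -0.0358). No 2 of the 48 pairs of replicate libraries agreed within counting error. P-values of the CCL206 fraction measure the spread between cultures of 1 line. Depth was 1805914 to 17675454 counts per library, which limits members with few reads.

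Alternatives were DESeq2 (version 1.42.0), its size factors, other filters, no mouse term, the length trend taken out, other sets of libraries, and each mouse left out. The fit that omits EV libraries 2 and 4 of the CCL206 fraction was chosen after seeing the data. The members and lists were chosen with earlier results of these data known. Genes named were the members called with OGN or SFs, all inhibitors, Mmp2, Mmp9, Mmp14, Adam10 and Adam17, up to 4 members per direction in the other comparisons, and up to 3 called genes per list. Each kind of fit was also run on simulated counts with known changes, drawn with the same spread for all genes and no mouse effect. It recovered 184 of 197 for OGN in Epcam+ cells, 192 of 197 in fibroblasts and 187 of 198 between fractions. For the difference of OGN responses it recovered 147 of 200, and 4 to 12 unchanged genes were called per fit.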

Additional observations from a re-analysis of the deposited data

Results flagged for a closer look

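Among 144 groups of 4 libraries over 18 members, 9 held 1 library far from the other 3, and chance gives about 1 in 20. In Epcam+ libraries these were mouse 2 with SFs for Adam10 (188.8 CPM against 209 to 214) and Mmp9 (4.42 against 8.50 to 9.22), mouse 2 with vehicle for Mmp10 (0.322 against 0.809 to 0.886), mouse 1 with OGN for Mmp3 (24.8 against 30.7 to 31.3) and mouse 4 with vehicle for Timp2 (721 against 526 to 549.8). In CCL206 libraries they were mouse 1 with vehicle for Adam10 (312 against 341 to 347), mouse 1 with SFs for Adam17 (107.6 against 119 to 121), mouse 3 with EVs for Adamts7 (65.1 against 39.6 to 42.4) and mouse 3 with SFs for Mmp3 (135.5 against 109 to 112).

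The response to OGN differed between fractions for Adamts9 (-1.04 on the log2 scale, fibroblasts minus Epcam+). The response to EVs differed for Adam10 (-0.46), Adam23 (-0.999), Adamts7 (-0.80), Adamts9 (-0.95), Adamtsl3 (-1.71), Mmp19 (-0.44) and Mmp2 (-0.44). Without the CCL206 libraries with EVs of mice 2 and 4, 0 of these 7 were called by edgeR. In that fit 33 of all genes were called, in place of 2815.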

How the results depend on the processing

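Of 167 counts of called members under an alternative, 118 were within 1.5 times the reported count and 49 were not. Of 1100 values of called genes under an alternative, 872 kept their call, 228 lost it and 0 changed sign. Adamts7 and Timp3 with OGN in both fractions, and Adamts5 and Mmp13 with OGN in fibroblasts, were called under every alternative run. The cause of the changes below was not tested.

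In Epcam+ cells, the 5 members called with OGN were 3 with at least 10 counts in every library, where 26 members were tested, 2 with only the 8 libraries compared, 3 without the EV libraries, and 2 to 5 with 1 mouse left out. Over all genes the 316 called with OGN were 307, 185 and 253 in these fits, and 144 to 268 with 1 mouse left out. The 0 called with EVs were 1 with at least 10 counts, 3 by DESeq2, 2 with the length trend taken out and 0 to 3 with 1 mouse left out, and the 0 with SFs were 2 by DESeq2 and 0 to 1 with 1 mouse left out. Over all genes the 104 called with EVs were 108, 201 and 118 in these fits, and 17 to 156 with 1 mouse left out. The 27 called with SFs were 53 by DESeq2 and 11 to 32 with 1 mouse left out. OGN against SFs gave 1 to 4 in place of 3 with 1 mouse left out, where 72 to 136 of all genes were called in place of 224. In fibroblasts, the 9 called with OGN were 15 without the EV libraries, 14 without those of mice 2 and 4, and 5 to 9 with 1 mouse left out. Over all genes the 533 called with OGN were 1770 without the EV libraries, 1620 without those of mice 2 and 4, and 236 to 411 with 1 mouse left out. The 10 called with EVs were 5 with the length trend taken out, 2 with only the 8 libraries compared, 3 without the EV libraries of mice 2 and 4, and 0 to 11 with 1 mouse left out. Over all genes the 4207 called with EVs were 2764, 387 and 645 in these fits, and 19 to 4556 with 1 mouse left out. The 1 called with SFs was 2 with only the 8 libraries compared, 1 without the EV libraries, 1 without those of mice 2 and 4, and 0 with any 1 mouse left out. Over all genes the 7 called with SFs were 302, 108 and 75 in the first 3 of these fits, and 2 to 5 with 1 mouse left out. OGN against EVs gave 6 with only the 8 libraries compared and 4 to 18 with 1 mouse left out, in place of 17. Over all genes these fits gave 912 and 636 to 4821, in place of 4397. OGN against SFs gave 7 by DESeq2, 10 with only the 8 libraries compared, 10 without the EV libraries and 1 to 4 with 1 mouse left out, in place of 4. Over all genes these fits gave 609, 1282, 1290 and 78 to 231, in place of 326.

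For differences between fractions, the 1 member called with OGN was 0 with at least 10 counts and 0 with any 1 mouse left out. The 7 called with EVs were 12 by DESeq2, 3 with the length trend taken out, 1 with only the 16 libraries of both treatments, 0 without the EV libraries of mice 2 and 4, and 0 to 7 with 1 mouse left out, and the 0 with SFs were 1 with only the 16 libraries. Over all genes the 2815 called for EVs were 3404 by DESeq2, 1335 with the length trend taken out and 844 with only the 16 libraries. They were 33 without the EV libraries of mice 2 and 4, and 261 to 2976 with 1 mouse left out. The 65 called for OGN were 58 with at least 10 counts and 16 to 47 with 1 mouse left out. The 0 called for SFs were 32 with only the 16 libraries. Without the replicate block the OGN difference between fractions gave 0 in place of 1, and the other counts stayed within 1.5 times, among them 4 in place of 5 with OGN in Epcam+ cells and 7 in place of 9 in fibroblasts. Over all genes these fits gave 35 in place of 65, 198 in place of 316 and 448 in place of 533.

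Depth limits Mmp9, Mmp10, Mmp13, Mmp16, Adam12, Adamts4, Adamtsl3 and Reck, each with fewer than 10 counts in some library.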
